A study of Mus musculus with 12 samples.

Results

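Leukocyte homing receptors and integrins are represented here by 9 genes, Ccr7, Cxcr4, Cxcr5, S1pr1, Itgal, Itga4, Itgb2, Selplg and Cd44. Every probe set that the annotation of the array assigns to one of these genes was taken, which gave 17 of the 45101 probe sets and 9 of the 18194 genes measured. The study profiled peripheral blood of adult C57Bl/10 mice aged 3 months on Affymetrix mouse genome arrays, with 4 mice in each of 3 groups and 1 mouse per array. CH mice were kept for 14 days in chronic hypoxia. The oxygen was lowered in steps from 21% to 8%, raised slightly for some days and then brought back to 8%, the level at harvest. REC mice had the same 14 days of hypoxia followed by 14 days of normoxic recovery, and NX mice spent 14 days at 21% oxygen. The mice carried no transgene or other treatment, and the blood was drawn from the inferior vena cava.

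Circulating leukocytes leave the blood in a sequence of steps. Selectins on the vessel wall catch glycosylated ligands such as the product of Selplg, chemokine receptors then sense chemokines held on the endothelium, and their signal switches integrins into the form that binds tightly. S1pr1 works in the opposite direction, since it senses sphingosine 1-phosphate and lets lymphocytes leave lymph nodes and thymus for the blood. In blood, Ccr7, Cxcr5 and S1pr1 are carried above all by lymphocytes, while Cxcr4, the integrins, Selplg and Cd44 are found on most leukocytes.

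The values are signals on a linear scale, 1 per probe set and array, scaled so that every array has the same trimmed mean. Fold changes are given as log2 of the signal after 16 was added, which understates the change of dim probe sets. A probe set was called when the limma fit over all 12 arrays gave a Benjamini-Hochberg adjusted p under 0.05 over the 45101 probe sets together with a change of at least 2-fold. A gene with several probe sets is led by its main probe set, the one with the highest mean log2 signal. Of the 17 probe sets, 14 had a mean log2 signal of at least 7 and 3 were dimmer. Levels of different probe sets are not comparable.

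The upstream sequences of Cxcr4, Itga4 and Cd44 are shown because most members fell in hypoxia and these 3 genes were the ones matched in the RefSeq promoter table (GRCm38.p6). Each window runs from 250 bases before to 50 bases after the start, on the strand of the gene. Capitals mark the core letters of the hypoxia response element, ACGTG or GCGTG, searched on both strands. Cxcr4 lies at chr1:128592250-128592549 on the minus strand, Itga4 at chr2:79255176-79255475 on the plus strand and Cd44 at chr2:102901616-102901915 on the minus strand.
Cxcr4: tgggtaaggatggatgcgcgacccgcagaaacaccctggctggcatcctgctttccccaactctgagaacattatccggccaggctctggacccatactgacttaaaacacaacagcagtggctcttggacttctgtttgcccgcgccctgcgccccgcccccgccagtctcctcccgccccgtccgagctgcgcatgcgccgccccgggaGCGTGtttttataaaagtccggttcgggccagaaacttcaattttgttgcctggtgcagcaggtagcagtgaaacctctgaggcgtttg
Itga4: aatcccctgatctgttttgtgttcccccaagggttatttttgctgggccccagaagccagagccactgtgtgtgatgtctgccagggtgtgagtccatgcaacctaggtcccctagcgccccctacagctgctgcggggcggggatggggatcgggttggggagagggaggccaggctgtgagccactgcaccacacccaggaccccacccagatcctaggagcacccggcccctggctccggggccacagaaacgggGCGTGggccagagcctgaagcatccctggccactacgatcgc
Cd44: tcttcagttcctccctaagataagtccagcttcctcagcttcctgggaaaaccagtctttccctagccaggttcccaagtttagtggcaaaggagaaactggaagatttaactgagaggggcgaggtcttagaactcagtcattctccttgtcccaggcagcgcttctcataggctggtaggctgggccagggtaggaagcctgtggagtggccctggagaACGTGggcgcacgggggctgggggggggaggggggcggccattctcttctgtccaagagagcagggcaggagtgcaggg
Cxcr4 and Itga4 held GCGTG, which 32.4% of all 32851 promoter windows hold, and Cd44 held ACGTG, which 19.6% hold. One core or the other was present in 43.8% of all windows. The CACCC box that Krüppel-like factors bind was present in Cxcr4 and Itga4 and in 57.5% of all windows. These are matches of letters, described as such.

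Most of these genes fell in chronic hypoxia. Of the 17 probe sets, 9 were called lower in CH than in NX and 0 higher, and the median log2 change of the 17 was -1.004. Over all probe sets the median was 0.11, 13.9% were called lower and 8.04% higher, and 22.0% were called in either direction. The 9 calls fell on 8 of the 9 genes, all but Itgb2, where a gene counts if any of its probe sets was called. By main probe set, 6 of the 9 genes were called lower, against 19.5% of all genes. Itga4 and Cd44 had their calls only in probe sets other than the main one. All 4 CH arrays lay below all 4 NX arrays in 10 of the 17 probe sets, against 15.8% of all probe sets, and above them in 0, against 10.2%. After recovery, 1 of the 17 was called lower in REC than in NX and 0 higher, where 2.74% of all probe sets were called lower, 1.62% higher and 4.36% in either direction. Both comparisons use the same NX arrays. In a bulk blood sample on arrays scaled to the same trimmed mean, 3 readings cannot be told apart. These are fewer cells of a type, less RNA per cell and a larger share of RNA from other cells.

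**Figure D1:**
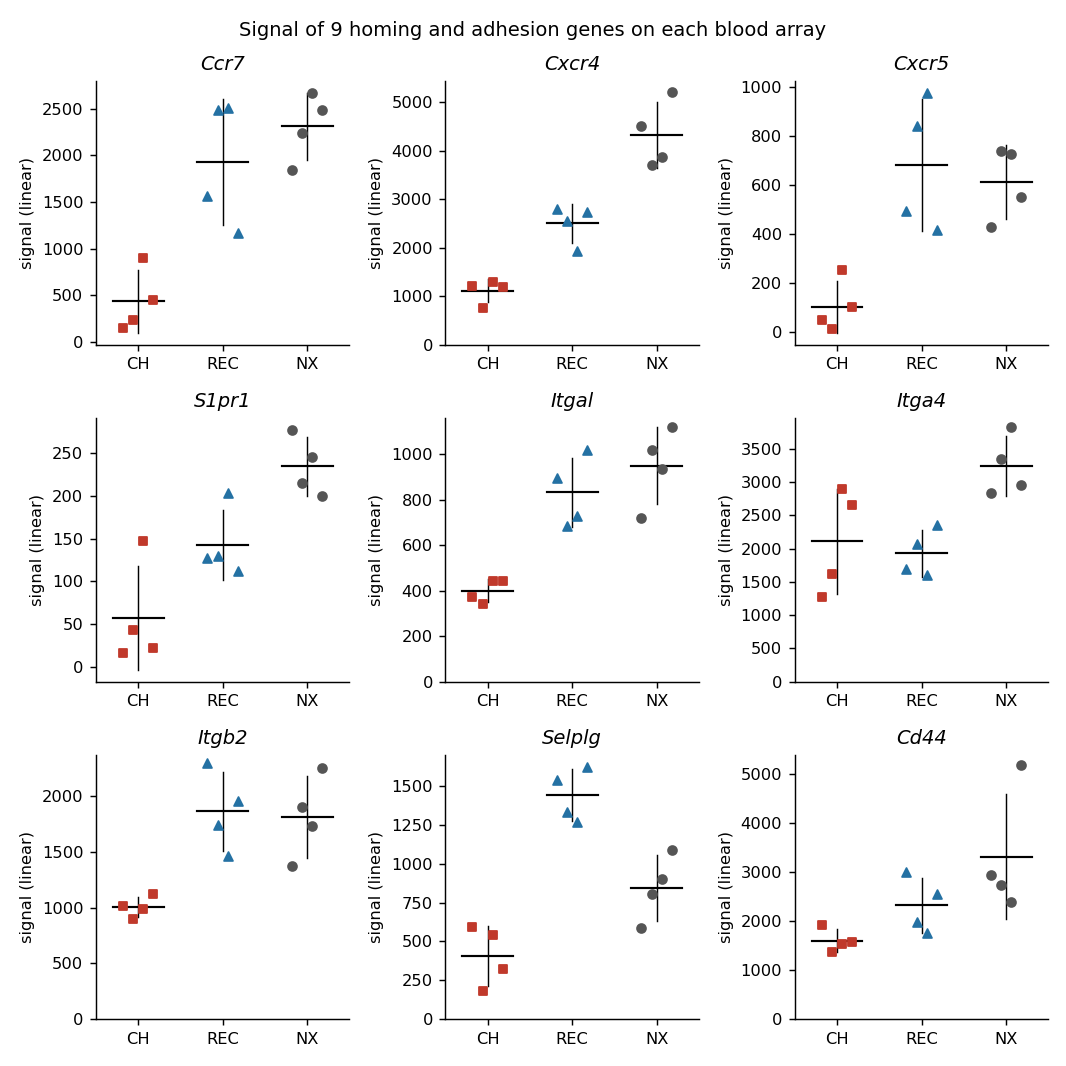
Signal (linear, y axis) of the main probe set of each of the 9 genes on every array, with CH as squares, REC as triangles and NX as circles; lines give the mean and SD of 4 mice. CH arrays lie below NX arrays without overlap for Ccr7, Cxcr4, Cxcr5, S1pr1, Itgal, Itgb2 and Cd44, while Itga4 and Selplg overlap.

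Among the chemokine receptors, Ccr7, Cxcr4 and Cxcr5 all fell in CH. Ccr7, the receptor for Ccl19 and Ccl21 that brings naive lymphocytes into lymph nodes, had signals of 147, 238, 899 and 452 in CH mice, 1564, 2486, 2504 and 1169 in REC mice and 1842, 2246, 2670.0 and 2487 in NX mice. All 4 CH arrays were below every REC and NX array, and CH replicate 3 was the highest of the CH arrays. The mean signal was 434 ± 335 in CH, 1931 ± 671 in REC and 2311 ± 358 in NX (SD, n = 4 each). CH reached 18.8% of the NX mean, a log2 change of -2.66 ± 0.44 (SE, limma adjusted p = 4.81e-04).

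Cxcr4, the receptor for Cxcl12 that holds leukocytes in the bone marrow, gave 1215, 764, 1300.1 and 1185 in CH mice, 2807, 2544, 1928 and 2737 in REC mice and 4511, 3705, 3877 and 5217 in NX mice. The 3 groups did not overlap, with CH lowest, REC between and NX highest. CH stood at 25.8% of the NX mean, with 1116 ± 239.9 in CH, 2504 ± 399.9 in REC and 4328 ± 686 in NX (SD, n = 4 each). The log2 change of CH over NX was -1.96 ± 0.24 (SE, limma adjusted p = 5.75e-05), the smallest adjusted p of the 17 probe sets. REC over NX was -0.79 ± 0.24 (SE, limma adjusted p = 0.0842), which did not pass although all 4 REC arrays lay below all 4 NX arrays, and was 0.022 when arrays were scaled on the hybridization controls.

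Cxcr5, the receptor for Cxcl13 that guides B cells and follicular T cells into B cell follicles, had the largest log2 change of CH over NX among the 17. Its signals were 47.0, 10.99, 251 and 100.4 in CH mice, 493, 839, 974 and 416 in REC mice and 428, 739.7, 726 and 551 in NX mice. CH arrays did not overlap with the other groups, and REC and NX arrays overlapped throughout. The CH mean of 102 ± 106 was 16.7% of the NX mean of 611 ± 149, and REC averaged 680.5 ± 269 (SD, n = 4 each). The log2 change was -2.85 ± 0.54 in CH over NX (SE, limma adjusted p = 0.00119) and 0.10 ± 0.54 in REC over NX (0.960).

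The exit receptor S1pr1 had signals of 16.7, 43.5, 147 and 22.2 in CH mice, 128, 129.6, 204 and 112 in REC mice and 277, 216, 246 and 200.2 in NX mice. It fell in CH by a log2 change of -2.08 ± 0.41 against NX (SE, limma adjusted p = 0.00153), with means of 57.3 ± 60.8 in CH, 143 ± 41.0 in REC and 235 ± 34.2 in NX (SD, n = 4 each). CH replicate 3 was again the highest CH array and overlapped with the REC arrays, although not with the NX arrays. REC replicate 3 overlapped with the NX arrays, and the REC over NX log2 change of -0.68 ± 0.41 did not pass (adjusted p = 0.431).

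Among the integrin genes, Itgal fell, Itgb2 did not reach the limit on the fold, and Itga4 differed between its probe sets. Itgal, the alpha chain that pairs with Itgb2 to form LFA-1 and binds intercellular adhesion molecules, was measured by 2 probe sets and fell in both. The main one had signals of 371, 343, 442 and 443 in CH mice, 897, 686, 729 and 1016 in REC mice and 721, 1017, 937 and 1119 in NX mice. Every CH array was below every array of the other groups. Means were 399.7 ± 50.6 in CH, 832 ± 153 in REC and 948 ± 169 in NX (SD, n = 4 each), a log2 change of -1.20 ± 0.23 for CH over NX (SE, limma adjusted p = 0.00139), which was not called after quantile normalization. The other probe set, 1425367_at, had 7.93, 53.5, 57.6 and 66.2 in CH mice, 137, 73.2, 82.6 and 125 in REC mice and 94.0, 178, 109.6 and 151 in NX mice, a log2 change of -1.37 ± 0.37 (adjusted p = 0.0121). CH replicate 1 stood far below the other 3 CH arrays there, and the call was lost without it.

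Itgb2, the beta chain of LFA-1 and of the other beta-2 integrins of leukocytes, gave 1011, 898, 988 and 1124 in CH mice, 2297, 1743, 1460.3 and 1958 in REC mice and 1369.7, 1901, 1735 and 2249.6 in NX mice. The CH arrays spanned a narrow range below all REC and NX arrays, and the REC and NX arrays overlapped. The means were 1005 ± 93.2 in CH, 1864 ± 353 in REC and 1814 ± 366 in NX (SD, n = 4 each), so CH was at 55.4% of NX. Its log2 change of -0.82 ± 0.23 passed the adjusted p (SE, limma, 0.0159) but not the 2-fold limit, so it was not called.

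Itga4, which pairs with Itgb1 to bind Vcam1 and with Itgb7 to bind Madcam1, was measured by 5 probe sets that did not move alike. The main probe set, 1436037_at, had 1268, 1625, 2898 and 2659 in CH mice, 1688, 2073, 1605 and 2359 in REC mice and 2835, 3339, 3831 and 2957 in NX mice. CH replicates 1 and 2 were low and CH replicates 3 and 4 lay within or near the NX range. The CH over NX log2 change of -0.68 ± 0.28 was not called (SE, limma adjusted p = 0.0870), and was called with quantile normalization (-1.27, adjusted p = 0.00360). All 4 REC arrays lay below all 4 NX arrays, with a log2 change of -0.75 ± 0.28 that did not pass either (adjusted p = 0.164).

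Probe set 1450155_at of Itga4 carried the 1 call of recovery. It gave 154, 279, 187 and 310.1 in CH mice, 108, 123, 92.1 and 87.7 in REC mice and 310.1, 334, 358 and 300.3 in NX mice. The REC arrays were below all others, and 1 of the 4 CH arrays reached the NX range. REC over NX was -1.53 ± 0.25 on the log2 scale (SE, limma adjusted p = 0.00348) and CH over NX was -0.51 ± 0.25 (adjusted p = 0.148). CH over REC was 1.02 ± 0.25 (adjusted p = 0.00509), called higher. That call was lost with the direction kept in 8 alternatives, among them median centring (0.71, adjusted p = 0.0983). The direction reversed in 1, hybridization control scaling (-1.16). The recovery call was lost when arrays were scaled on the hybridization controls (-0.82, adjusted p = 0.0657) or on pan-leukocyte markers (-1.62, adjusted p = 0.0546).

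Of the other 3 Itga4 probe sets, 1421194_at was called lower in CH than in NX, with 68.1, 56.7, 122 and 125 in CH mice, 178, 248, 103 and 73.1 in REC mice and 188, 252, 197 and 149 in NX mice. Its CH and NX arrays did not overlap, but the log2 change of -1.004 ± 0.35 lay just inside the limit (SE, limma adjusted p = 0.0426). The call was lost with the direction kept in 14 of the alternatives run, and with the direction reversed in 1, scaling on pan-leukocyte markers (0.0815). Among the 14 were quantile normalization, a pseudocount of 1 or 64, the replicate block (adjusted p = 0.0608), the fit without moderation (adjusted p = 0.0769) and leaving out 8 of the 12 arrays one at a time. Probe set 1456498_at had 538, 279, 196 and 155 in CH mice, 97.4, 149, 111 and 124 in REC mice and 465, 151, 229 and 245 in NX mice. It was called higher in CH than in REC (1.04 ± 0.37 on the log2 scale, SE, limma adjusted p = 0.0421). That call was lost with the direction kept in 13 alternatives, among them median centring (0.72, adjusted p = 0.0797) and a pseudocount of 1 or 64. The direction reversed in 1, hybridization control scaling (-1.15). The CH over NX log2 change of 1456498_at was 0.05 ± 0.37 (adjusted p = 0.933). CH replicate 1 and NX replicate 1 were the highest arrays of their groups. The last, 1427615_at, averaged 33.4 ± 22.1 in CH, 9.28 ± 4.16 in REC and 30.7 ± 32.5 in NX (SD, n = 4 each) and was called in no comparison.

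**Figure D2:**
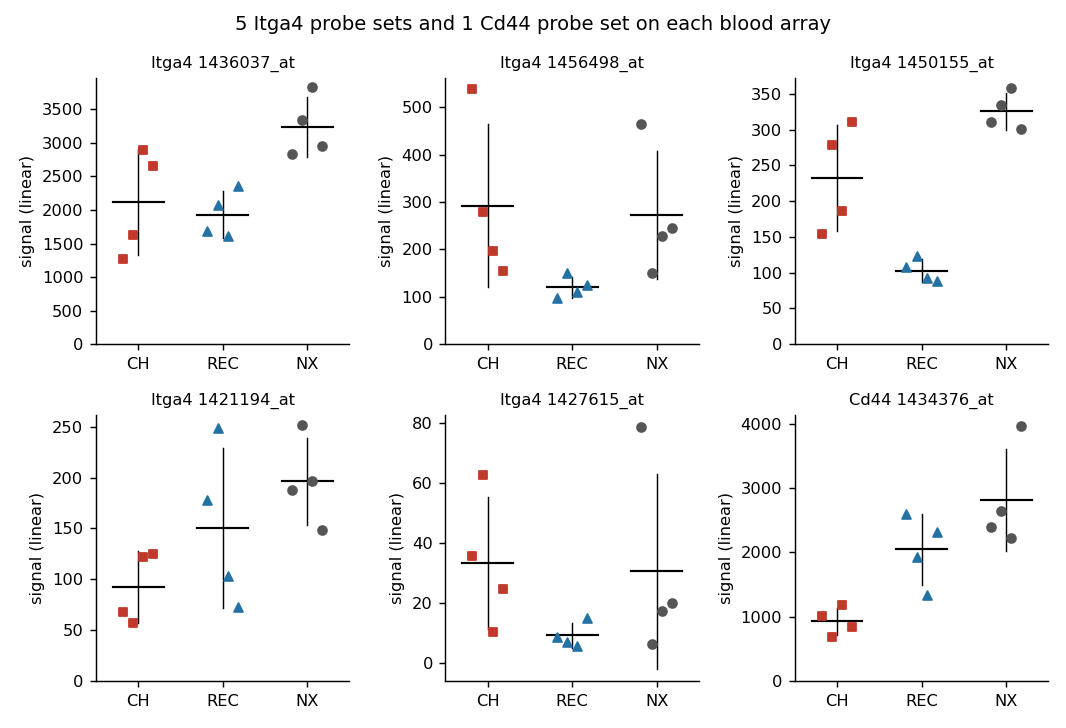
Signal (linear, y axis) of the 5 Itga4 probe sets and of the Cd44 probe set 1434376_at on every array, with CH as squares, REC as triangles and NX as circles; lines give the mean and SD of 4 mice. REC arrays of Itga4 1450155_at lie below all CH and NX arrays, while 1421194_at has its lowest mean in CH.

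Selplg, which encodes the P-selectin ligand PSGL-1, was lowest in CH and highest in REC. Its signals were 591, 179, 541 and 320.1 in CH mice, 1544, 1337, 1271 and 1629 in REC mice and 584, 803, 902 and 1093 in NX mice. The CH arrays were below all REC arrays and overlapped with NX through 1 NX array, and all 4 REC arrays were above all 4 NX arrays. Means were 408 ± 193 in CH, 1445 ± 169 in REC and 845 ± 212 in NX (SD, n = 4 each). CH over NX was -1.12 ± 0.34 on the log2 scale (SE, limma adjusted p = 0.0209), a call that was lost with quantile normalization (-0.81, adjusted p = 0.0894) and without CH replicate 2, NX replicate 3 or NX replicate 4. REC over NX was 0.79 ± 0.34 (adjusted p = 0.225), not called, and became a call when arrays were scaled on the hybridization controls (1.60, adjusted p = 0.00887). CH over REC was -1.91 ± 0.34 (adjusted p = 4.75e-04), called lower.

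Cd44, the hyaluronan receptor of activated and memory leukocytes, had 4 probe sets. The main probe set, 1423760_at, gave 1922, 1362, 1525 and 1567 in CH mice, 3005, 1979, 1759.8 and 2551 in REC mice and 2948, 2734, 2384 and 5194 in NX mice. The CH arrays lay below all NX arrays, and NX replicate 4 was far above the other NX arrays. The log2 change of -0.99 ± 0.28 lay just outside the 2-fold limit (SE, limma adjusted p = 0.0152). It was called with quantile normalization (-1.42, adjusted p = 0.00221) and median centring (-1.15, adjusted p = 0.00998). Probe set 1434376_at had 1009, 685, 1182 and 837 in CH mice, 2605, 1934, 1334 and 2319 in REC mice and 2397, 2639, 2232 and 3973 in NX mice, and there CH was called lower than NX, with a log2 change of -1.57 ± 0.28 (SE, limma adjusted p = 8.69e-04). CH arrays did not overlap with either other group. Probe set 1452483_a_at averaged 271 ± 80.7 in CH, 426 ± 91.7 in REC and 415 ± 120.5 in NX (SD, n = 4 each), a CH over NX log2 change of -0.58 (adjusted p = 0.146). The dim probe set 1443265_at averaged 40.9 ± 36.7 in CH, 16.4 ± 2.95 in REC and 39.4 ± 36.8 in NX and its arrays overlapped.

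Return to normoxia was read in 2 ways, against NX and against CH. In REC over NX, the median log2 change of the 17 probe sets was -0.46, against -0.10 over all probe sets. REC lay wholly below NX in 4 of the 17, which were Cxcr4 and 3 probe sets of Itga4, and wholly above it in 1, Selplg. Over all probe sets, 11.8% were wholly below and 8.58% wholly above. In CH over REC, 8 of the 17 were called lower and 2 higher, where 15.2% of all probe sets were called lower, 12.6% higher and 27.8% either way. The 8 lower calls were those of Ccr7, Cxcr4, Cxcr5, S1pr1, both Itgal probe sets, Selplg and Cd44 1434376_at, and both higher calls were of Itga4. Scaled on the hybridization controls, those 2 Itga4 changes were negative (-1.16 for 1450155_at and -1.15 for 1456498_at). The 10 calls numbered 5 without CH replicate 2 and 6 without REC replicate 1, 3 or 4. Log2 changes of CH over REC were -2.34 ± 0.44 for Ccr7, -2.95 ± 0.54 for Cxcr5 and -1.17 ± 0.24 for Cxcr4 (SE, limma adjusted p = 8.00e-04, 6.40e-04 and 0.00185). The call for S1pr1, -1.40 ± 0.41 (adjusted p = 0.0150), was lost without REC replicate 3 and with a pseudocount of 64. That for Cxcr4 was lost without CH replicate 2, and that for Cd44 1434376_at without CH replicate 2 or REC replicate 1. The call for Itgal 1425367_at was lost in 12 alternatives, among them quantile normalization and a pseudocount of 1 or 64. That for Itgal 1435560_at was lost in 6, among them quantile normalization (-0.615), and its direction reversed in 1. Cxcr4 alone of the 4 receptors was intermediate in REC without overlap with either other group.

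**Figure D3:**
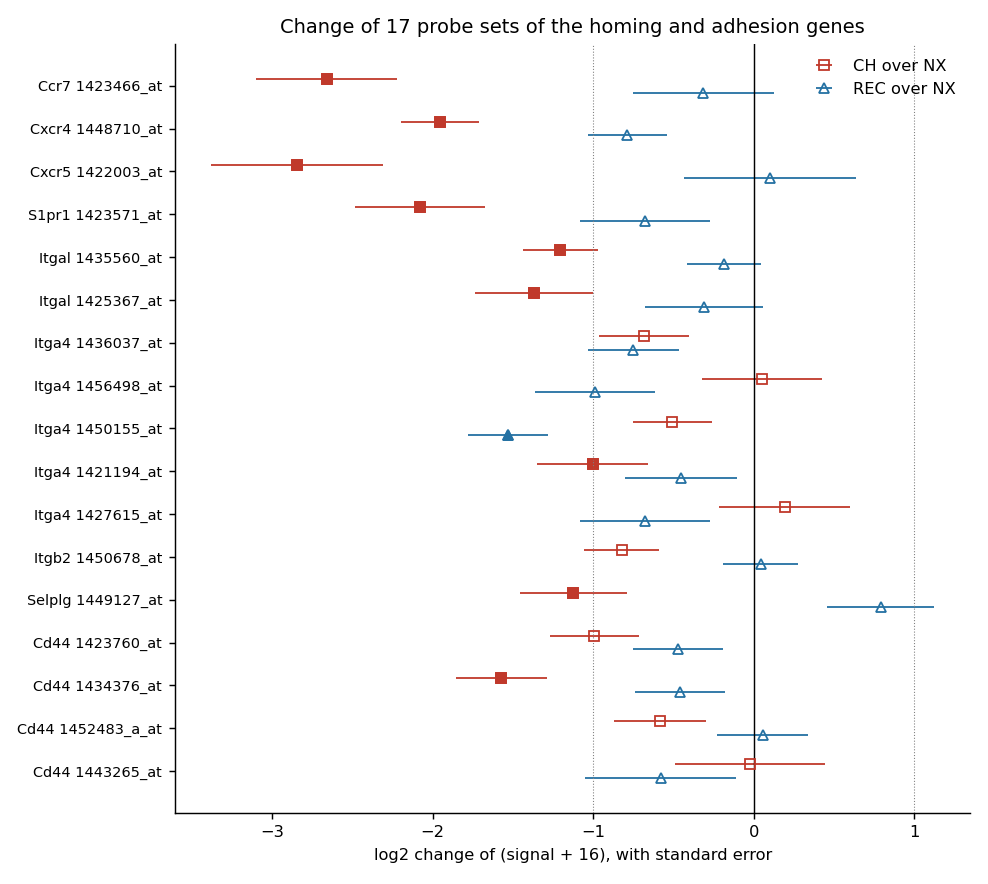
Log2 change (x axis) with its SE for each of the 17 probe sets (rows) in CH over NX (squares) and REC over NX (triangles). Filled symbols mark called probe sets and open symbols those not called. Calls in CH over NX are all to the left of 0, from -2.85 for Cxcr5 to -1.004 for Itga4 1421194_at.

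Genes around the members were read from lists, with the main probe set of each gene. Over the main probe sets of all 18194 genes, CH over NX gave 9.08% called higher and 19.5% lower, with a median log2 change of 0.05. Of 12 integrin activators, 7 fell in CH against NX and 1 rose, with a median of -1.11. Dock2 and Vav1, which drive Rac signalling downstream of chemokine receptors, changed by -1.98 and -1.77, and Rassf5, a Rap1 effector that activates LFA-1, by -1.87. Rap1a, the small GTPase of that step, rose by 2.60, with signals of 10181 ± 2274 in CH and 1667 ± 333 in NX (SD, n = 4 each). Of 10 receptor signalling genes, 6 fell and 0 rose (median -1.51), led by Arhgef1 (-2.09) and Rgs2 (-1.87). Of 13 other integrin subunits, 4 fell and 1 rose (median -0.84). Itgb7, the gut homing partner of Itga4, averaged 305 ± 221 in CH and 942 ± 169.5 in NX (-1.77), and the call that rose was Itga3 (1.28).

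In the sphingosine phosphate pathway, 5 of 12 genes fell in CH against NX and 1 rose. Klf2, the transcription factor that switches on S1pr1 and the L-selectin gene in lymphocytes, averaged 312 ± 189 in CH and 1032 ± 182 in NX, a log2 change of -1.81 (limma adjusted p = 9.07e-04). Cd69, whose protein pulls S1pr1 off the cell surface, averaged 398 ± 168 in CH and 1906 ± 339 in NX, a change of -2.28 (adjusted p = 5.13e-05). The transporter Spns2 and the lyase Sgpl1 changed by -1.83 and -1.58. Of 15 other chemokine receptors, 1 fell (6.67%, under the 19.5% of all genes), Ccr6 (-1.36), and 0 rose. Both Icam1 (-2.16) and Icam2 (-2.20), ligands of LFA-1, were the 2 of 10 adhesion ligands called lower, a share near the 19.5% over all genes. The median of these 10 was 0.46, and 7 of them had positive log2 changes. Of 11 selectins and enzymes that build their ligands, 1 fell and 1 rose (9.09% each, where 19.5% of all genes fell and 9.08% rose). These were the sulfotransferase Tpst1 (-1.96) and the sialyltransferase St3gal6 (1.89). Of 5 homing chemokines, 1 rose, Ccl28 (1.22).

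In REC over NX, 455 of the 18194 genes were called higher by their main probe set and 325 lower. None of these 8 lists had a call except for S1pr5, the S1P receptor of NK cells, which averaged 153 ± 21.7 in REC and 31.3 ± 15.0 in NX, a log2 change of 1.88 (limma adjusted p = 0.0129). That call was lost with scaling on pan-leukocyte markers. Beside it, 5 of 8 NK cell markers were called higher in REC than in NX, and their mean log2 signal ran from 8.98 to 9.69 in REC and 7.82 to 8.44 in NX. Their part in the S1pr5 result was not tested. In CH over REC, 7 of the 12 sphingosine phosphate genes, 8 of the 12 integrin activators and 7 of the 10 receptor signalling genes were called lower, against 23.3% of all genes. S1pr2 and Sphk1 of the first list and Rap1a of the second (2.41) were called higher, against 12.3% of all genes. Skap1 (-2.86), an adaptor of T cell integrin activation, was the lowest of the integrin activators. It averaged 90.6 ± 75.3 in CH, 640 ± 120 in REC and 255 ± 55.3 in NX (SD, n = 4 each), with all REC arrays above all NX arrays. Of 15 other chemokine receptors, 2 were called lower (13.3%), Cxcr3 (-2.81) and Cxcr6 (-2.41), and 1 higher, Ccr10 (1.29), with a median of -0.15. Mean signals in CH, REC and NX were 85.1, 660 and 180 for Cxcr3 and 40.4, 329 and 66.5 for Cxcr6. For both, all REC arrays lay above all NX arrays. Neither was called in CH over NX (limma adjusted p = 0.0827 and 0.357). Calls lower and higher in CH over REC were 4 and 1 of 13 other integrin subunits and 2 and 2 of 11 selectins and ligand enzymes. They were 3 and 0 of 10 adhesion ligands and 0 and 2 of 5 homing chemokines.

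**Figure D4:**
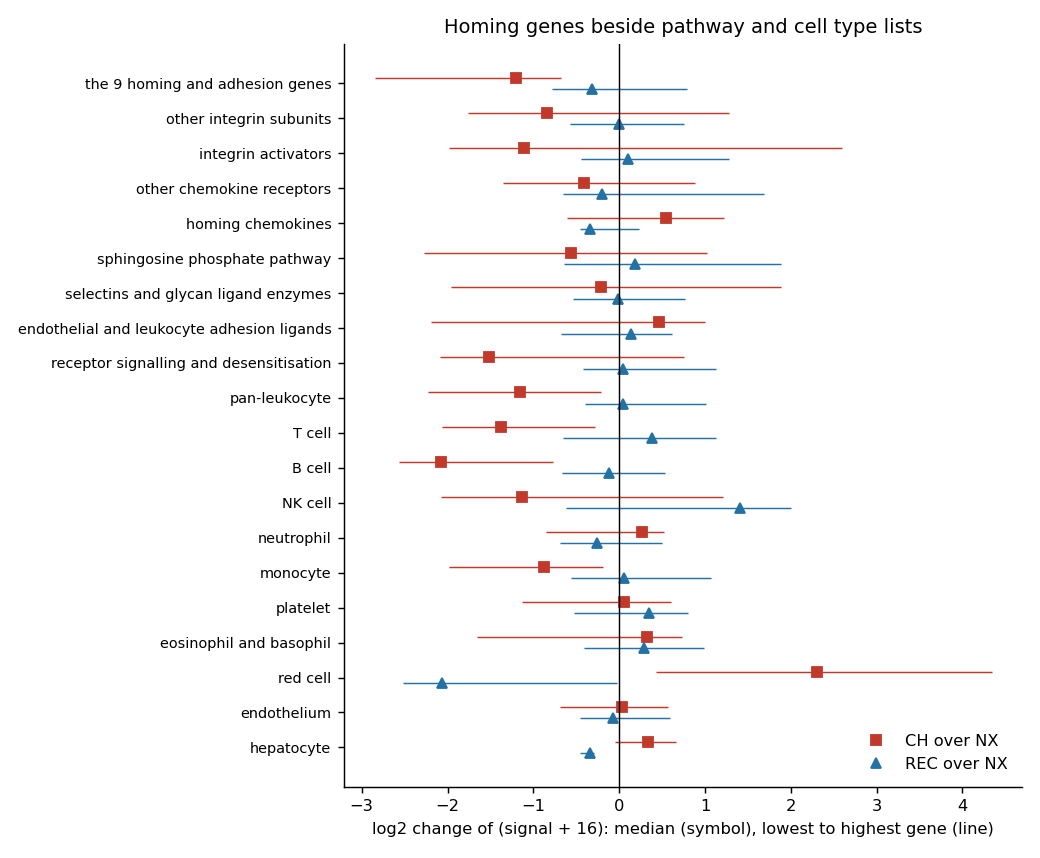
Median log2 change (x axis) of the main probe sets of each list (rows) in CH over NX (squares) and REC over NX (triangles). The lists are of homing genes and of cell type markers, and lines run from the lowest to the highest gene. The 9 members have a median of -1.20 in CH over NX, close to the pan-leukocyte markers at -1.16, with B cell markers at -2.07 and red cell markers at 2.31.

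Markers of several blood cell types moved with these results. In CH against NX, 1 of 8 platelet markers (median 0.05) and 1 of 7 eosinophil and basophil markers (median 0.33) were called lower and 0 higher. No marker of endothelium or hepatocytes was called in any comparison. In CH against NX, 7 of 10 pan-leukocyte, 10 of 13 T cell, 8 of 9 B cell, 4 of 8 NK cell (with 1, Prf1, higher) and 3 of 7 monocyte markers were called lower, and 0 of 7 neutrophil markers in either direction. Of 6 red cell markers, 5 were called higher. In REC against NX the same number, 5 of 6, were called lower (median -2.07), and their mean log2 signal ran from 7.65 to 9.17 in REC and 9.94 to 10.11 in NX, with 12.35 to 12.89 in CH. The 100 brightest probe sets of an array held 19.9% to 22.1% of its signal in CH, 8.46% to 10.3% in REC and 10.6% to 13.8% in NX. The part of red cell RNA in the fall in CH and in the recovery result was not tested. The mean log2 signal of the pan-leukocyte markers ran from 10.11 to 11.55 in CH, 11.91 to 12.06 in REC and 11.65 to 12.02 in NX. That of the B cell markers ran from 7.73 to 9.52 in CH, 10.17 to 10.41 in REC and 10.26 to 10.58 in NX, and that of the T cell markers from 7.14 to 8.70 in CH, 9.09 to 9.24 in REC and 8.77 to 9.11 in NX. Neutrophil markers ran from 8.86 to 10.18 in CH, 9.11 to 9.33 in REC and 9.00 to 9.99 in NX. CH replicate 3, the highest CH array for Ccr7, Cxcr5 and S1pr1, was also the highest CH array for the pan-leukocyte, T cell and B cell markers.

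The size of the fall relative to leukocyte markers was measured by scaling each array on the mean of the 10 pan-leukocyte markers, a setting chosen after the values were seen. On that scale 3 of the 17 probe sets were called lower in CH than in NX and 0 higher, where 1.24% of all probe sets were called lower and 31.2% higher. They were Cxcr5 (-1.87, limma adjusted p = 0.0109), Ccr7 (-1.47, 0.00733) and S1pr1 (-1.14, 0.0301). Cxcr4 was not called there (-0.74, 0.0650), and Itgb2, Selplg and 6 of the 9 Itga4 and Cd44 probe sets had positive log2 changes where the deposited scale gave negative ones. Over the whole array, the median change moved to 0.86 on that scale. On the same scale 2 of 9 B cell markers were called lower (median -0.89) and 0 of 13 T cell markers (median -0.17), and the part of B and T cell numbers in these 3 calls was not tested. No integrin activator, receptor signalling gene or other integrin subunit was called lower there, and the medians of these lists were 0.11, -0.31 and 0.21.

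Technical measures also moved with the groups. The mean log2 signal of the 18 hybridization control probe sets was 14.29 in CH, 11.87 in REC and 12.68 in NX (CH against NX p = 0.029 and REC against NX p = 0.029, exact two-sided permutation tests, the smallest p that 4 against 4 allows). With arrays scaled on these controls, 15 of the 17 probe sets were called lower in CH than in NX, and 38.8% of all probe sets were. The Actb probe set at the 3' end over that at the 5' end gave a ratio of 2.00 ± 0.094 in CH, 1.61 ± 0.092 in REC and 1.71 ± 0.10 in NX (SD, n = 4 each), a difference between CH and NX with p = 0.029 in the same exact test. The part of RNA integrity in the result was not tested.

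The genes whose signals over the 12 arrays were most like each member were taken from 6468 genes of mean log2 signal of at least 7, as a description. The arrays are shared and the 3 groups differ, so high values of Pearson's r are common. The most alike were Snx8 (0.991) and Foxo1 (0.986) for Ccr7, Tsc22d3 (0.976) and Txnip (0.969) for Cxcr4, Trmt1 (0.989) and Cisd2 (0.988) for Cxcr5, and Pogz (0.980) and S100pbp (0.978) for S1pr1. For the integrins they were Tmem170b (0.985) and Jarid2 (0.985) for Itgal, Tollip (0.977) and Skap2 (0.974) for Itgb2, and Gatad2b (0.954) and Marf1 (0.930) for Itga4. Selplg was most like Rgs2 (0.990) and Myo6 (0.989), and Cd44 most like Slc2a3 (0.935) and Litaf (0.930). Among the members, r over the 12 arrays was 0.96 between Ccr7 and Cxcr5 and 0.95 between the LFA-1 chains Itgal and Itgb2, against 0.05 between Itga4 and Selplg.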

How the data were processed

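Blood RNA of 12 mice was measured on 12 arrays, 4 per group. The table deposited by the authors holds intensities, linear and not logged, with 1 signal per probe set and array. The mean after trimming 2% at each end is equal on every array, so a gene is high or low relative to the rest of its array. The Methods describe GC-RMA, a log2 method, while the deposited signals are linear, and which program summarised them into 1 value per probe set is not settled by the sources used here. The Methods say that raw intensities were kept in the GeneChip Operating System and mention scaling factors. Titles and treatment labels gave the groups; 1 label field disagreed for the CH mice and was set aside. The number of arrays limits the precision.

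With limma 3.58.1 (R 4.3.3), group means were fitted to log2(signal + 16) over 12 arrays, with 9 residual degrees of freedom and Benjamini-Hochberg adjustment over 45101 probe sets. Of these, 34958 name 1 gene, 932 several and 9211 none. The fit was tested on simulated data with known changes. Every member probe set was reported, and of each other list up to 4 called genes with the largest change; the 2 most alike genes were named per member. Members and lists were chosen with earlier results of these data known. Lists were homing gene groups and cell type markers, described by counts and medians. For array measures, exact two-sided permutation tests were used. Alternatives covered normalization, pseudocount, dim probe sets, variance model, weights, replicate block, thresholds and left-out arrays. Promoter sequences are from RefSeq (GRCm38.p6), where 3 of the 9 genes were matched. Figures were drawn with matplotlib 3.10.9.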

Additional observations from a re-analysis of the deposited data

Results flagged for a closer look

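In the second Itgal probe set, 1425367_at, CH replicate 1 had a signal of 7.93, while the other 3 CH arrays lay between 53.5 and 66.2. On the log2 scale used for the fold changes, the gap of CH replicate 1 to the nearest array was 0.864 of the range of the group. This was above the limit of 0.829 for 4 samples. The ratio holds for that scale and not for the linear signals given above. A total of 51 groups of 4 arrays was examined and 1 stood out, where chance marks about 1 in 20.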

How the results depend on the processing

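Of the 17 member probe sets, 9 were called in CH against NX, with 7 to 9 when 1 array was left out, 15 with scaling on hybridization controls and 3 with scaling on pan-leukocyte markers, a setting chosen after seeing the data. REC against NX gave 1 (1 for every left-out array), 0 with pan-leukocyte scaling, and 1 with hybridization control scaling, which there was Selplg, higher. CH against REC gave 10, with 5 to 11 when 1 array was left out (5 without CH replicate 2, and 6 without REC replicate 1, 3 or 4), 5 with a pseudocount of 64 15 with hybridization control scaling (0 higher, 15 lower) and 6 with pan-leukocyte scaling, of which 4 were higher and 2 lower, against 2 higher and 8 lower on the deposited scale. Ccr7, Cxcr5 and S1pr1 stayed called in CH against NX under every alternative run, with log2 changes of -4.01 to -1.87 for Cxcr5, -4.17 to -1.47 for Ccr7 and -3.11 to -1.14 for S1pr1. Over all probe sets, hybridization control scaling gave 38.8% lower and 1.23% higher in CH against NX (median -0.71), pan-leukocyte scaling 1.24% and 31.2%, and median centring 17.2% and 6.29%.

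Replicate numbers were shared between groups. For CH and NX, deviations of same-numbered arrays from their group means had correlations of -0.20 to 0.44, the highest for replicate 1. These values cannot show whether same-numbered arrays were handled together, and the main fit did not pair them. With a replicate block, 8, 1 and 10 of the 17 probe sets were called in CH against NX, REC against NX and CH against REC.

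Directions reversed as follows, on the log2 scale, and the cause was not tested. With pan-leukocyte scaling, CH against NX gave 0.0815 for Itga4 1421194_at, 0.54 for 1436037_at and 0.66 for 1450155_at, 0.23 for Cd44 1423760_at, 0.79 for 1443265_at and 0.59 for 1452483_a_at, 0.0677 for Selplg and 0.39 for Itgb2. REC against NX gave -0.0407 for Cxcr5, -0.10 for Itgb2 and -0.0815 for Cd44 1452483_a_at. CH against REC gave 0.65 for Itga4 1421194_at, 0.85 for Cd44 1423760_at, 0.24 for 1434376_at and 0.68 for 1452483_a_at, 0.32 for Itgal 1435560_at, 0.19 for Cxcr4 and 0.49 for Itgb2.

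With hybridization control scaling, CH against NX gave -0.61 for Itga4 1427615_at and -1.40 for 1456498_at. REC against NX gave 0.28 for Itga4 1421194_at and 0.0587 for 1436037_at, 0.49 for Ccr7, 0.0681 for S1pr1, 0.0219 for Cxcr4, 0.34 for Cd44 1423760_at and 0.35 for 1434376_at, 0.41 for Itgal 1425367_at and 0.62 for 1435560_at. CH against REC gave -0.30 for Itga4 1427615_at, -2.34 for 1436037_at, -1.16 for 1450155_at and -1.15 for 1456498_at, and -0.73 for Cd44 1443265_at.

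Cd44 1443265_at in CH against NX became 0.0126 with a pseudocount of 64, 0.55 with array weights and 0.81 without CH arrays 3 and 4. Itga4 1456498_at became -0.11 there with median centring. Itgb2 in REC against NX became -0.0436 with quantile normalization and -0.0566 with array weights. Itga4 1436037_at in CH against REC became -0.29 with quantile normalization, -0.25 with median centring, -0.0484 with array weights and -0.41 without CH arrays 3 and 4. With 1 array left out, CH against NX ran from -0.0832 to 0.61 for Itga4 1427615_at, from -0.28 to 0.33 for Itga4 1456498_at and from -0.39 to 0.38 for Cd44 1443265_at. REC against NX ran from -0.10 to 0.30 for Cxcr5, from -0.0839 to 0.15 for Itgb2 and from -0.10 to 0.19 for Cd44 1452483_a_at, and CH against REC from -0.11 to 0.28 for Itga4 1436037_at. The dim probe sets among these have little signal over background.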
